A study of Mus musculus with 2 samples.

Results

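The posterior Hox genes are the Hox genes of paralog groups 4 to 13, and all 31 of them were listed among the 32285 genes of the deposited mouse single-cell count tables. They were taken by symbol, and their raw UMI counts (unique molecular identifiers, each standing for a captured RNA molecule) were summed per library, cell class and cluster. The study made 1 library of embryos whose neural tube had not closed (NTD, for neural tube defect) and 1 control library, both labelled as embryonic mouse brain and prepared with Chromium 3′ v3 chemistry. The NTD embryos came from dams kept on a low-folate diet and injected intraperitoneally with 1.5 mg/kg methotrexate (MTX), a folate antagonist, at gestational day 7.5. These embryos were delayed and smaller, mainly with hindbrain malformations and spina bifida. The control sample is labelled with normal saline and closed neural tubes. The labels give neither the diet of its dams nor the strain, and for neither library do they say how many embryos it held, of which sex or at which stage. With 1 library per group no test between the groups was possible. The exact 95% intervals given below (Poisson for a level, conditional binomial for a ratio, Clopper-Pearson for a share) cover counting error only, and not differences between embryos or preparations.

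Hox genes encode homeodomain transcription factors that give cells their position along the head-to-tail axis. In mammals they lie in 4 complexes, and genes at the low-numbered end of a complex are switched on earlier and reach further forward than those at the high-numbered end. Groups 1 to 3 pattern the hindbrain. Groups 4 to 8 reach from the posterior hindbrain and neck through the brachial to the thoracic level, group 9 marks the thoracic level, and groups 10 to 13 mark the lumbar, sacral and tail levels. The forebrain and midbrain normally have no Hox expression, and neither has the mesenchyme of the front of the face. The Hoxa and Hoxd complexes are used again in the limb bud, where groups 9 to 13 pattern the limb from shoulder to digits.

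The Hoxa members lie at chr6:52189671-52260880 on the minus strand, and the Hoxb members at chr11:96194316-96321638 on the plus strand. The Hoxc members lie at chr15:102921103-103036852 and the Hoxd members at chr2:74668310-74729160, both on the plus strand (GRCm38, which is mm10). On the same strand, the model of Hoxc5 overlaps those of Hoxc6, Hoxc8, Hoxc9 and Hoxc10. Hoxd4 overlaps Hoxd3, and Hoxa4, Hoxa5 and Hoxa6 overlap Hoxa3. Counts of these genes are therefore uncertain where a read could belong to either. RefSeq promoters (250 bases before to 50 after a start, GRCm38.p6) were at hand for 17 of the 31 members, as 19 sequences. Of these, 4 are printed here, for the pair of group 4 members with the most NTD UMIs and for a pair of members that led the limb-gene mesenchyme of the control library. Capitals mark TTTATG, a motif bound by Cdx factors, here on the other strand as CATAAA.
Hoxb4, chr11:96318017-96318316, plus strand: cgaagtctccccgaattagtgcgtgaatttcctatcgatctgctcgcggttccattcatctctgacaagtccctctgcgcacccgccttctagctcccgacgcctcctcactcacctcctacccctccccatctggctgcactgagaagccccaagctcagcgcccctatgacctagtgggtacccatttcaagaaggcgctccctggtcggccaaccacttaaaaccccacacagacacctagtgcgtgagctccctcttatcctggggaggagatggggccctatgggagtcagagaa
Hoxc4, chr15:103034145-103034444, plus strand: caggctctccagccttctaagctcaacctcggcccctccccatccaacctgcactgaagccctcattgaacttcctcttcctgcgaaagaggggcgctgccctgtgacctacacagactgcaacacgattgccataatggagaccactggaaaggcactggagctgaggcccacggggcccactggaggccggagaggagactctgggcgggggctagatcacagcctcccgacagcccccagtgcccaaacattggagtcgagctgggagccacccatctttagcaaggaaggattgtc
Hoxa9, chr6:52227321-52227620, minus strand: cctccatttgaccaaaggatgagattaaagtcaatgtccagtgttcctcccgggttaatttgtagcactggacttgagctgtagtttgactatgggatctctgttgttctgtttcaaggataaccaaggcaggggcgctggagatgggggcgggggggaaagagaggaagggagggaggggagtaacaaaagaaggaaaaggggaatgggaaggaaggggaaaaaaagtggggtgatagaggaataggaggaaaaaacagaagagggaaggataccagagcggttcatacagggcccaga
Hoxd11, chr2:74679308-74679607, plus strand: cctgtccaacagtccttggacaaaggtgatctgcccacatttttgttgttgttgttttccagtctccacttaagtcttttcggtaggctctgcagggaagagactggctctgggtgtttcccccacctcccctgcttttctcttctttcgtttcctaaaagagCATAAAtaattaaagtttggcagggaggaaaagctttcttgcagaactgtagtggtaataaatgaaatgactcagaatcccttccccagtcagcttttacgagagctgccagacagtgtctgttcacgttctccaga
TTTATG, searched on both strands, was in 4 of the 19 member promoters (21.1%), against 11.9% of 32851 promoters of the table. The joint Pbx-Hox motif TGATNNAT was in 2 of 19 (10.5%), against 8.85%, and the homeodomain core TAAT in 15 of 19 (78.9%), against 58.0%. The median GC content of the member promoters was 57.3%, against 52.7% over the table, and their median number of CpG dinucleotides 14, against 7. A match is a run of letters and not a bound site.

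The NTD library held 19056 cell barcodes with 55524355 UMIs and the control library 18572 with 50741121 UMIs. After the barcodes most like doublets were removed, 16223 NTD and 15848 control cells were kept, with medians of 2437 and 2167.5 UMIs. Clusters were made with the Hox genes left out, so that the members did not define them, and named from marker lists. The label "brain" described the NTD library better than the control library. Cluster 5, led by the limb genes Tbx15, Tbx4 and Tbx5, held 15 NTD and 1740 control cells, and cluster 8, led by the visceral mesoderm genes Wt1, Gata4 and Gata6, held 65 and 1369. Skeletal muscle-like cells numbered 8 in NTD and 399 in control, and liver or yolk sac-like cells 5 and 137. The 105 barcodes found in both libraries were 0.551% of the NTD and 0.565% of the control barcodes. Without them the members together stood at 31.6 CPM in NTD and 721 CPM in control (CPM counts the UMIs of a gene per 1000000 UMIs of the same cells), as they did with them.

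Droplets also catch free RNA from broken cells, so erythroid-like cells, which should lack most of these transcripts, were used to gauge it. In them the 31 members together were at 22.0 CPM in NTD (9.51 to 43.4, from 8 UMIs) and 292 CPM in control (252 to 337, from 186 UMIs). Hoxa9 and Hoxb4 are used by blood stem and progenitor cells, so this gauge may stand high for them. It also stood high for other members in control. Of 21 other clusters, 6 were under it beyond counting error for Hoxb7 and 6 for groups 12 and 13 together. For the summed Hoxc members 4 were under it, for Hoxd10 3 and for groups 10 to 13 together 2. For these, a level that does not exceed the gauge is not shown to be free RNA alone. The liver genes Afp, Apoa1 and Apoa2 gave a like picture: their sum was 19.3 CPM in NTD and 333 CPM in control erythroid-like cells, and 9.27 and 306 CPM in neural progenitor-like cells. A level near the erythroid-like level of the same library is read here as background.

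In the control library the posterior Hox genes were high in some tissues and at background in others. Of the neural progenitor-like cells, cluster 2 (led by Pax5 and Cnpy1, 1752 control cells) had 1144 CPM of the 31 members together (1113 to 1176), the highest level of any cluster. Cluster 3, led by the forebrain genes Wnt8b and Nr2e1, had 250 CPM (227 to 275), and cluster 6, led by Otx2 and Dmbx1 of the forebrain and midbrain, had 255 CPM (225 to 287). The last pair did not exceed the erythroid-like level. Clusters made without the Hox genes thus still differed in them, and the progenitors of clusters 3 and 6 were at background. Whether cluster 2 held cells of a single axial level or of several was not tested, and its level is a mean over all its cells.

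The difference between these progenitor clusters was larger for groups 4 and 6 than for the groups from 9 on. Group 4 was at 402 CPM in cluster 2 and 48.3 CPM in cluster 3, a fold of 8.31 (6.64 to 10.5). Group 6 was at 257 and 28.4 CPM, a fold of 9.06 (6.77 to 12.4). Group 9 was at 145 and 60.4 CPM, a fold of 2.41 (1.95 to 3.00), and groups 10 to 13 together at 73.3 and 38.7 CPM, a fold of 1.89 (1.45 to 2.52). In erythroid-like cells groups 10 to 13 were at 59.7 CPM, and cluster 2 did not exceed them beyond counting error (a fold of 1.23, 0.876 to 1.77). Taken alone, group 10 in cluster 2 did stand above its erythroid-like level beyond counting error, and groups 11, 12 and 13 did not. The lumbar and sacral groups thus stood above the forebrain cluster by less than groups 4 and 6 did. Neuroblast-like cells (cluster 9) had 1091 CPM of all members (1030 to 1156), and the neuron-like cluster 10, led by the inhibitory-neuron genes Gad1 and Slc6a5, had 968 CPM (912 to 1027). Cluster 7, led by the glutamate transporter gene Slc17a6, had 778 CPM (733 to 825).

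**Figure D1:**
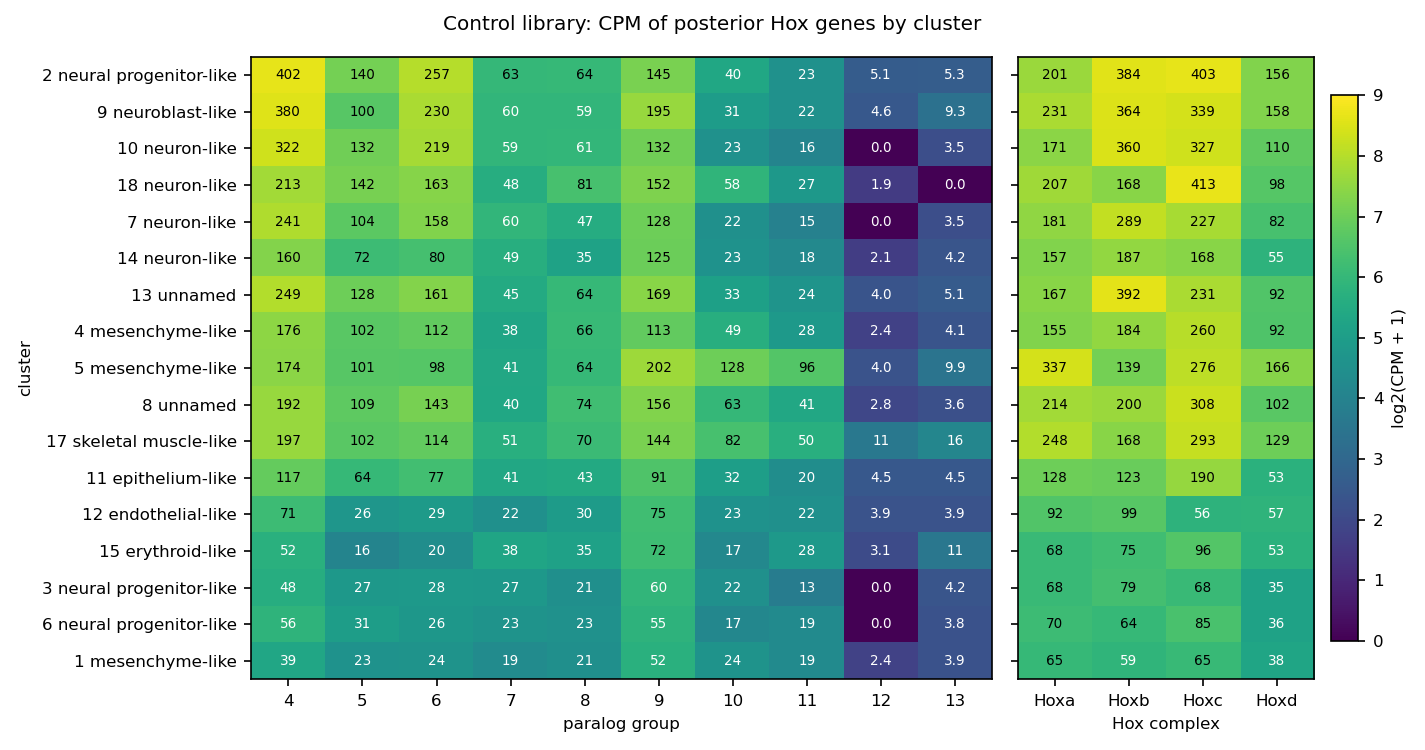
Level of each paralog group (left, columns 4 to 13) and of each Hox complex (right) in 17 clusters of the control library, in CPM as printed in each cell, with colour on a log2(CPM + 1) scale. Levels are to be compared down a column, not between columns: group 4 is at 402 CPM in cluster 2 and 48.3 CPM in cluster 3, and group 10 is highest in cluster 5, at 128 CPM.

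Limb-gene mesenchyme carried another Hox code than the neural cells. In cluster 5 the 31 members together were at 918 CPM (892 to 945), close to the neural level, but they were made up of other genes. Group 10 was at 128 CPM in cluster 5 and 40.3 CPM in cluster 2, a fold of 3.18 (2.69 to 3.76), and group 11 at 95.8 and 22.6 CPM, a fold of 4.24 (3.42 to 5.31). The cluster 2 level of group 11 was at background (28.3 CPM in erythroid-like cells), and cluster 5 stood above that background by 3.39-fold (2.12 to 5.77). Group 4 went the other way, at 174 and 402 CPM (0.43, 0.40 to 0.47), and so did group 6, at 98.2 and 257 CPM (0.38, 0.34 to 0.42). Group 8 was the turning point, with a fold of 1.00 (0.85 to 1.18).

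The fold also differed by complex. The Hoxb members together were at 139 CPM in cluster 5 and 384 CPM in cluster 2, a fold of 0.36 (0.33 to 0.39). The Hoxa members were at 337 and 201 CPM, a fold of 1.68 (1.55 to 1.83). The Hoxd members were at 166 and 156 CPM, with a fold of 1.06 (0.96 to 1.17) that hid opposite members. Hoxd4 was at 38.5 CPM in cluster 5 and 116 CPM in cluster 2 (0.33). Hoxd11, which with Hoxa11 shapes the forearm, was at 74.6 and 16.6 CPM (4.49, 3.50 to 5.84), with 18.8 CPM in erythroid-like cells.

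The same split ran through group 9 and group 10. Hoxa9 was at 146 CPM in cluster 5 and 58.2 CPM in cluster 2, a fold of 2.51, while Hoxb9 was at 17.1 and 57.8 CPM, a fold of 0.30, with 17.3 CPM in erythroid-like cells. Hoxa10, which acts in the uterus and with its paralogs in the upper hindlimb, was at 89.4 and 20.4 CPM, a fold of 4.39. Hoxc10 was at 20.8 and 17.04 CPM, with a fold of 1.22 (0.90 to 1.66). Hoxd10 was at 17.7 and 2.88 CPM, but at 9.42 CPM in erythroid-like cells, so that its cluster 2 level was under background and the fold is not read. Within group 10, then, the Hoxa gene stood higher in the limb-gene mesenchyme, and the interval for the Hoxc gene included no difference.

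**Figure D2:**
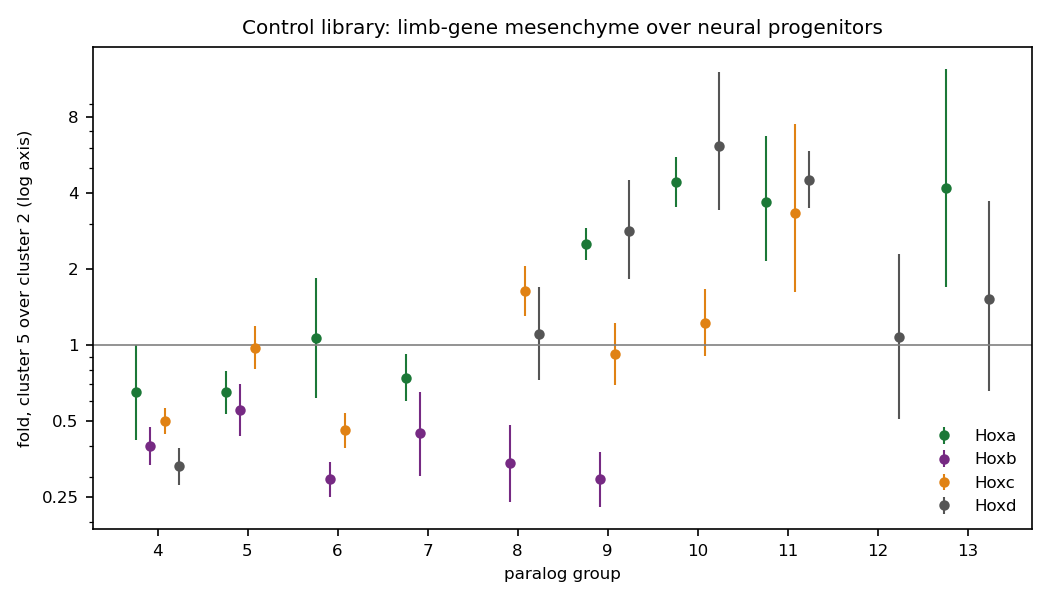
Fold of each member's level in the limb-gene mesenchyme (cluster 5) over that in neural progenitor-like cluster 2, control library only, on a log axis, by paralog group and coloured by complex, with exact 95% intervals of counting error. The Hoxb points all lie under 1, from 0.29 for Hoxb6 to 0.55 for Hoxb5, and Hoxa10 and Hoxd11 lie at 4.39 and 4.49.

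Other control tissues differed from these in some complexes and groups. Neuron-like cluster 18 was led by Chat and Lhx4 of motor neurons. Among clusters with at least 50 control cells it had the highest level of Hoxc6, a brachial motor neuron gene, and of Hoxc8. Hoxc6 was at 114 CPM, with cluster 2 next at 107 CPM, and Hoxc8 at 65.9 CPM, with cluster 8 next at 50.9 CPM. Compared with the inhibitory-neuron cluster 10, the Hoxb members of cluster 18 were at 168 CPM against 360 CPM (0.47, 0.39 to 0.56). The Hoxc members of cluster 18 were at 413 CPM against 327 CPM (1.26, 1.10 to 1.45). Group 10, which sets lumbar motor neuron identity, was at 58.2 CPM against 22.7 CPM (2.56, 1.59 to 4.22), with 17.3 CPM in erythroid-like cells. Hoxc9, which sets the thoracic motor columns, was at 40.7 CPM against 15.7 CPM, but its erythroid-like level of 22.0 CPM lay between them and no fold is read. The motor-neuron-gene cluster was thus richer in Hoxc genes and poorer in Hoxb genes than cluster 10.

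Cluster 13, led by the neural crest and glial genes Sox10 and Cdh19, differed from the neural progenitors of cluster 2 in its summed Hoxc members and not detectably in its summed Hoxb members. Its Hoxb members were at 392 CPM, against 384 CPM in cluster 2 (1.02, 0.91 to 1.14), and its Hoxc members at 231 CPM, against 403 CPM (0.57, 0.50 to 0.66). It had the highest control levels of Hoxb4 (102 CPM), Hoxb5 (50.6 CPM), Hoxb8 (33.4 CPM) and Hoxb9 (68.8 CPM) among clusters with at least 50 control cells. Neural clusters came close for most of them. The next levels were 100 CPM for Hoxb4 and 29.6 CPM for Hoxb8 in cluster 9, 49.0 CPM for Hoxb5 in cluster 10 and 57.8 CPM for Hoxb9 in cluster 2.

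In clusters 8 and 4, mesoderm away from the limb genes, the caudal groups compared were lower than in cluster 5. In cluster 8 (Wt1 and Gata4) group 10 was at 63.0 CPM, against 128 CPM in cluster 5 (0.49, 0.42 to 0.57), while its Hoxb members were at 200 CPM, against 139 CPM (1.44, 1.30 to 1.60). In cluster 4, led by Pax9 and Colec12, groups 10 to 13 together were at 83.2 CPM, against 238 CPM in cluster 5 (0.35, 0.31 to 0.39). Skeletal muscle-like cells (cluster 17) had the highest level of groups 12 and 13 among the clusters plotted, at 27.5 CPM, against 13.9 CPM in cluster 5 (1.98, 1.26 to 3.05). Over the erythroid-like level of 14.1 CPM this was a fold of 1.94 (0.907 to 4.63), which does not place it above background. They held Hoxc12 at 6.87 CPM and Hoxc13, a hair and nail gene, at 10.3 CPM. Of this pair only Hoxc13 stood above its erythroid-like level beyond counting error, and group 11 of cluster 17 did so too. In the other clusters plotted group 12 was at 5.09 CPM or less and group 13 at 10.99 CPM or less, the level of erythroid-like cells.

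Mesenchyme-like cluster 1, led by the head mesenchyme genes Alx1, Alx4 and Lhx8, had 227 CPM of all members in control (207 to 248), under the erythroid-like level. Endothelial-like cells had 305 CPM (275 to 336) and epithelium-like cells 495 CPM (460 to 531). Mesenchyme-like cells held 29.0% of the control library's posterior Hox UMIs (28.5 to 29.5), neural progenitor-like cells 20.4% and neuron-like cells 12.9%. The mesenchyme share rested on clusters 4 and 5 taking that class name and was 1.64% under a stricter naming rule. Some members could not be placed in this way. Hoxb7 was as high in erythroid-like cells (23.6 CPM) as in cluster 2 (19.0 CPM), and so were Hoxc9 (22.0 and 23.2 CPM), Hoxd10 (9.42 and 2.88 CPM) and Hoxd13 (6.28 and 2.21 CPM).

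In the NTD library almost none of this was found. Over all kept cells the 31 members together had 1436 UMIs in NTD and 28676 in control, or 31.5 CPM (29.9 to 33.2) and 721 CPM (713 to 729). The log2 ratio of NTD over control was -4.51 (-4.59 to -4.44). Of the 31 members, 30 had at least 20 UMIs over both libraries, and 30 of these were at least 2-fold lower in NTD, as were 9.77% of the 19794 genes that met the same minimum. Hoxb13 did not reach it, and all 30 reached it in the control library alone, so the count describes them and tests nothing. Their median log2 ratio was -4.81, against -0.24 over all measured genes. Scaling by the trimmed mean of M values (TMM) shifts every ratio over all kept cells upward by 0.25.

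The low level held within the classes that both libraries had in number. Neural progenitor-like cells were at 21.6 CPM in NTD (19.4 to 23.9) and 809 CPM in control (788 to 830), a log2 ratio of -5.23 (-5.39 to -5.07), which is 37.5-fold lower. Neuron-like cells were at 21.2 CPM in NTD (17.8 to 25.1) and 806 CPM in control (780 to 832), with -5.24. Mesenchyme-like cells were at 43.6 CPM in NTD (39.6 to 47.9) and 706 CPM in control (691 to 722), with -4.02 (-4.16 to -3.88). All 24 measured members were at least 2-fold lower in NTD among progenitor-like cells (4.28% of all genes were), all 23 among neuron-like cells (5.53%) and all 28 among mesenchyme-like cells (5.66%). The members' UMIs came almost wholly from control, with 356 in NTD and 5854 in control progenitor-like cells, 138 and 3691 in neuron-like and 434 and 8312 in mesenchyme-like cells. Members thus met the minimum of UMIs mostly through control, and these counts too describe them and test nothing. The erythroid-like gauge was also lower in NTD, by -3.65 on the log2 scale, and the part of free RNA in these ratios was not tested beyond the subtraction in the closing section.

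The classes were not made of the same clusters in both libraries. Of 5599 NTD progenitor-like cells, 2543 were in forebrain-gene cluster 3 and 1749 in cluster 2, whereas 1752 of 2853 control ones were in cluster 2. Within cluster 2 alone, with nearly equal numbers of cells, the members were at 28.9 CPM in NTD (24.4 to 34.0) and 1144 CPM in control (log2 ratio -5.30). NTD mesenchyme-like cells lay mostly in head-gene cluster 1 (2838 of 3190), control ones in clusters 4 and 5 (1630 and 1740 of 4165). Within cluster 1 the members were at 42.5 CPM in NTD (38.2 to 47.1) and 227 CPM in control, with -2.42, where the control level was itself at background. The mesenchyme-like ratio was thus set by which clusters took the class name, and was -2.76 with coarser clusters. A difference in the axial levels and organs that entered the libraries and a difference in Hox RNA per cell cannot be told apart with these data.

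**Figure D3:**
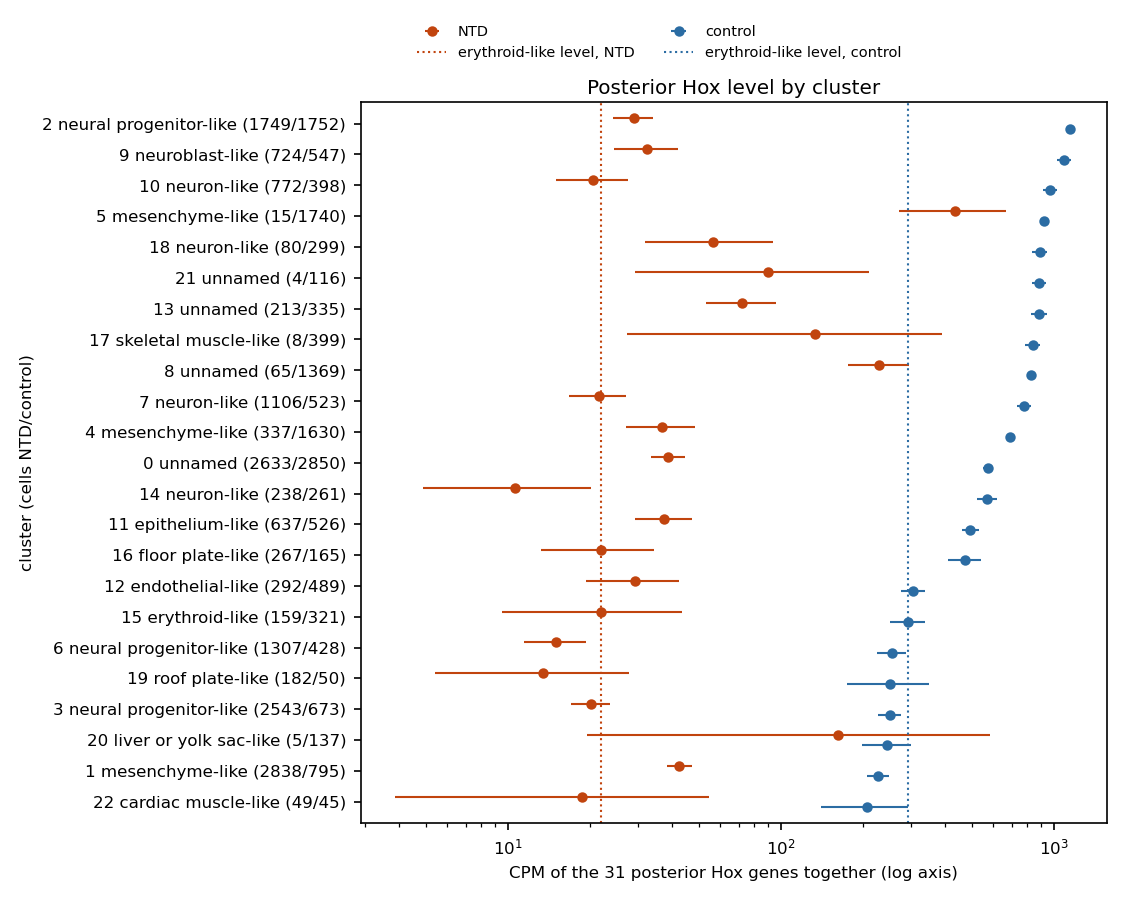
CPM of the 31 posterior Hox genes together in each cluster (log axis), NTD in orange and control in blue, with exact 95% intervals of counting error, and the erythroid-like level of each library as a dotted line. The NTD erythroid-like level is 22.0 CPM, the NTD points of clusters 5 and 8 lie at 436 and 229 CPM and those of the sparsely filled clusters 17, 20 and 21 at 133, 161 and 90.1 CPM (from 3, 2 and 5 UMIs), while control clusters run from 206 to 1144 CPM.

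Group 4, the most forward of these groups and active in the posterior hindbrain and neck, held the largest share of what was left. Hoxb4 had 161 UMIs in NTD and 1972 in control, or 3.54 and 49.6 CPM, a log2 ratio of -3.81 (-4.05 to -3.58). Hoxc4 had 164 UMIs in NTD and 3321 in control, or 3.60 and 83.5 CPM, with -4.53 (-4.77 to -4.31), and its highest control level was 179 CPM in cluster 2. Hoxd4, whose forward limit lies in the posterior hindbrain, had 86 UMIs in NTD and 1842 in control, or 1.89 and 46.3 CPM, with -4.61 (-4.95 to -4.30). Hoxa4 was scarce in both libraries, with 30 UMIs in NTD and 312 in control (0.659 and 7.84 CPM, -3.55). Hoxa4 and Hoxb4 had ratios nearer to 0 than Hoxc4 and Hoxd4. In NTD clusters of at least 50 cells, only Hoxc4, Hoxd4, Hoxb6 and Hoxc6 of all members exceeded the erythroid-like level, each in cluster 8 alone. That gauge rests on 8 UMIs. Here and for the groups below, differences between members in these ratios are therefore not read as differences in what remained.

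Group 5 genes, of the neck and the phrenic motor neurons of the diaphragm, were also all lower in NTD than in control. Hoxa5 had 78 UMIs in NTD and 1372 in control, or 1.71 and 34.5 CPM, with -4.32 (-4.68 to -4.002). Hoxb5 had 34 UMIs in NTD and 933 in control, or 0.747 and 23.5 CPM, with -4.95 (-5.51 to -4.48). Hoxc5 had 42 UMIs in NTD and 1268 in control, or 0.922 and 31.9 CPM, with -5.09 (-5.59 to -4.67), and shares sequence with its Hoxc neighbours. In control, Hoxa5 was highest in cluster 2 (54.7 CPM, with cluster 18 next at 52.3 CPM). Hoxb5 was highest in cluster 13 (50.6 CPM, with cluster 10 next at 49.0 CPM) and Hoxc5 in motor-neuron-gene cluster 18 (64.9 CPM, with cluster 17 next at 46.4 CPM).

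Groups 6 to 8 pattern the brachial and thoracic levels, and group 6 had the lowest ratio of the groups from 4 to 10. Hoxc6 had 50 UMIs in NTD and 2120 in control, or 1.10 and 53.3 CPM, a log2 ratio of -5.59 (-6.04 to -5.20) and 48.5-fold lower. Hoxb6, expressed in trunk neural tube and lateral mesoderm, had 96 UMIs in NTD and 2460 in control, or 2.11 and 61.8 CPM, with -4.87 (-5.18 to -4.58). Hoxa6 had 1 UMI in NTD and 143 in control, a ratio of 164-fold whose interval on the log2 scale ran from -12.67 to -4.85. Group 6 as a whole was at 3.23 CPM in NTD and 119 CPM in control (-5.20, -5.45 to -4.96). In neuron-like cells group 6 had 10 UMIs in NTD and 724 in control, a log2 ratio of -6.61 (-7.75 to -5.79).

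Hoxa7 had 57 UMIs in NTD and 1210 in control, or 1.252 and 30.4 CPM, with -4.59 (-5.01 to -4.22). Hoxb7 had 29 UMIs in NTD and 541 in control (0.637 and 13.6 CPM, -4.39). Hoxb8, known from trunk patterning and from a lineage of microglia, had 72 UMIs in NTD and 642 in control (1.58 and 16.1 CPM), with -3.34 (-3.72 to -3.00). Hoxc8, which shapes the motor pools of the forelimb, had 40 UMIs in NTD and 1240 in control (0.878 and 31.2 CPM), with -5.13 (-5.64 to -4.70). Within group 8 the intervals of Hoxb8 and Hoxc8 did not overlap, and Hoxd8 lay beside Hoxb8, with 37 UMIs in NTD and 302 in control (-3.21, -3.76 to -2.73).

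Group 9 members had widely differing ratios, although none exceeded the erythroid-like level in an NTD cluster of at least 50 cells. Hoxa9 had 86 UMIs in NTD and 2677 in control, or 1.89 and 67.3 CPM, with -5.15 (-5.48 to -4.85). Hoxb9 had 110 UMIs in NTD and 1276 in control, or 2.42 and 32.1 CPM, with -3.73 (-4.03 to -3.45). Hoxc9 had 61 UMIs in NTD and 843 in control (1.34 and 21.2 CPM, -3.97). Hoxd9, a gene of limb and lumbar levels, had 61 UMIs in NTD and 380 in control (1.34 and 9.55 CPM), with -2.82 (-3.25 to -2.44). At 7.13-fold lower it had the smallest difference of the 30 measured members. The member that led the limb-gene mesenchyme of the control library, Hoxa9, had the lowest ratio of its group.

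Groups 10 and 11, of the lumbar and sacral levels, the limb and the kidney, had few NTD UMIs. Hoxa10 had 42 in NTD and 1174 in control, or 0.922 and 29.5 CPM, with -4.98 (-5.48 to -4.56). Hoxc10 had 20 in NTD and 572 in control (0.439 and 14.4 CPM, 32.7-fold lower), and Hoxd10 had 27 and 272 (0.593 and 6.84 CPM, -3.50). Hoxd11 had 29 in NTD and 1055 in control, or 0.637 and 26.5 CPM, with -5.36 (-5.97 to -4.85) and 41.6-fold lower. Hoxa11, needed with its paralogs for kidney induction, had 19 in NTD and 225 in control (0.417 and 5.66 CPM, -3.73), and Hoxc11 had 1 and 152.

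At the tail end nothing or next to nothing was counted in NTD. Hoxd12 and Hoxd13, which pattern the digits, had 0 UMIs in NTD and 86 and 98 in control, at least 32.8-fold and at least 37.4-fold lower against a floor of 3 UMIs in the NTD library. Hoxc12 had 0 in NTD and 47 in control, at least 17.9-fold lower. Hoxb13, which limits the length of the tail, had 0 in NTD and 14 in control, at least 5.34-fold lower. Hoxa13, of the digits and the genital tubercle, had 2 UMIs in NTD and 92 in control, with a log2 ratio of -5.40 (-8.79 to -3.82). Hoxc13 had 1 in NTD and 35 in control, with -4.76 (-10.67 to -2.75). These were the scarcest members in control as well.

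**Figure D4:**
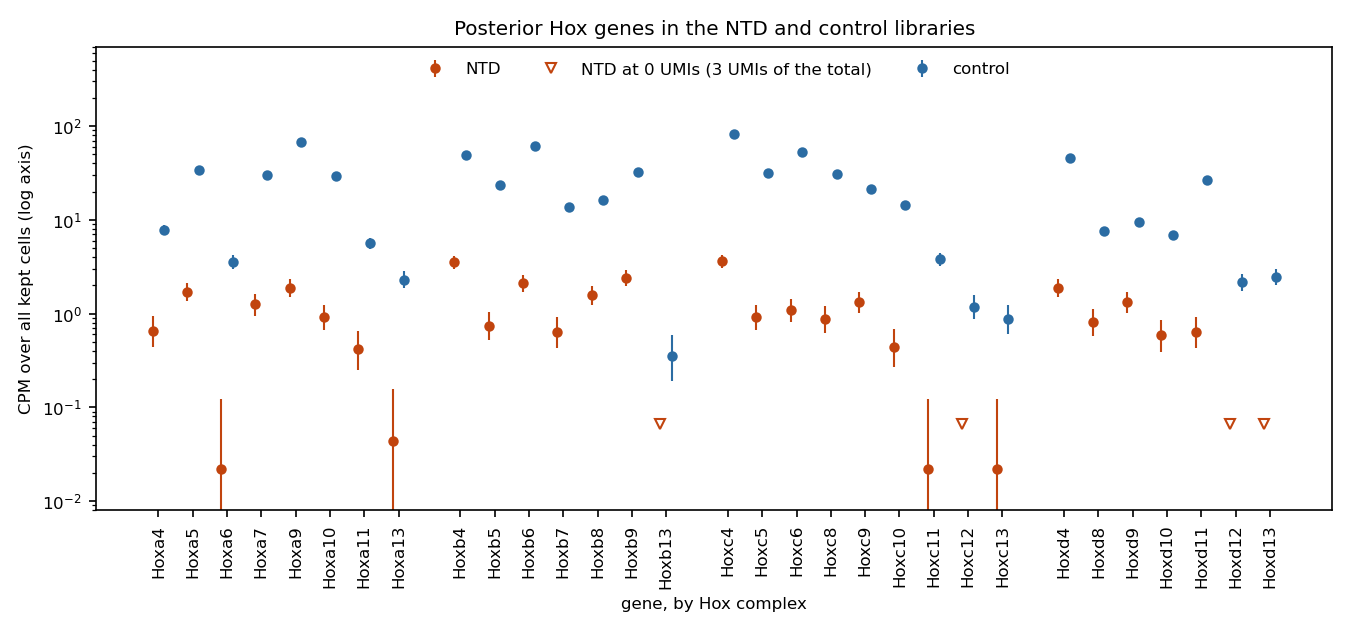
CPM of each of the 31 members over all kept cells (log axis), NTD in orange and control in blue, grouped by complex in order of paralog group, with exact 95% Poisson intervals and open triangles at the level of 3 UMIs where NTD had 0. NTD points run up to 3.60 CPM (Hoxc4) and control points up to 83.5 CPM, and in no member do the intervals of the libraries meet.

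The make-up of what was left in NTD was near that of the control, but not the same. Groups 4 and 5 held 41.4% of the NTD posterior Hox UMIs (38.9 to 44.0, 595 of 1436) and 38.4% of the control ones (37.9 to 39.0). Groups 10 to 13 held 9.82% in NTD (8.33 to 11.5) and 13.3% in control. Over the neural classes together the shares were 44.97% in NTD and 44.5% in control for groups 4 and 5, and 7.29% and 7.18% for groups 10 to 13. By group, the log2 ratio over all kept cells ran from -4.06 (-4.32 to -3.83) for group 8 to -5.20 for group 6 among groups 4 to 10, and was -5.05 (-5.51 to -4.65) for group 11. By complex it was -4.71 for Hoxa (315 UMIs in NTD and 7205 in control), -4.16 for Hoxb (502 and 7838), -4.86 for Hoxc (379 and 9598) and -4.26 for Hoxd (240 and 4035). There was thus no steady slope along the axis in NTD, apart from the near absence of groups 12 and 13, with 0 and 3 UMIs in NTD and 133 and 239 in control.

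Some small NTD clusters stood above the background level, although most NTD posterior Hox UMIs lay elsewhere. The largest number, 364 UMIs or 25.3% of the NTD total, was in head-gene cluster 1, at 1.93 times the NTD erythroid-like level (0.969 to 4.50). Cluster 8 (Wt1 and Gata4), with 65 NTD cells, had 229 CPM in NTD (176 to 294, from 62 UMIs) and 824 CPM in control (log2 ratio -1.83). Cluster 5 (Tbx4 and Tbx5), with 15 NTD cells, had 436 CPM in NTD (270 to 667, from 21 UMIs) and 918 CPM in control, with -1.04. Cluster 13 (Sox10) had 72.4 CPM in NTD (53.4 to 96.0) and 882 CPM in control, with -3.59, and motor-neuron-gene cluster 18 had 56.6 CPM in NTD (31.7 to 93.4) and 886 CPM in control, with -3.92. Over the NTD erythroid-like level these were folds of 10.4 (4.97 to 25.2) in cluster 8, 19.8 (8.43 to 51.7) in cluster 5, 3.29 (1.54 to 8.04) in cluster 13 and 2.57 (1.02 to 7.005) in cluster 18. The NTD progenitor-like clusters 2, 3 and 6 were at 1.31, 0.92 and 0.68 of it.

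In NTD cluster 8 the UMIs were of groups 4 to 9, with 1 of a more caudal group. Group 4 was at 85.1 CPM in NTD (23 UMIs) and 192 CPM in control, with a log2 ratio of -1.15 (-1.84 to -0.58). Group 6 was at 40.7 CPM in NTD (11 UMIs) and 143 CPM in control, with -1.75 (-2.82 to -0.96). Group 9 was at the same 40.7 CPM in NTD (11 UMIs) and at 156 CPM in control, with -1.87. Groups 7 and 11 had 0 UMIs in NTD and 145 and 148 in control, and group 10 had 1 in NTD and 229 in control. Hoxc4 stood at 37.0 CPM there, its highest NTD level among the larger clusters. In NTD cluster 5 the 21 UMIs included 8 of group 4, 5 of group 9, 3 of group 10 and 1 of group 11, and only 1 of the Hoxb complex, too few to compare further. In the larger mesenchyme-like cluster 4 (Pax9 and Colec12, 337 NTD cells) the members were at 36.7 CPM in NTD (27.2 to 48.5) and 691 CPM in control, with -4.22. Clusters 5 and 8 thus had a level nearer to control, and cluster 4 did not. A handful of cells carried these levels: in NTD cluster 8, 17 of 65 cells had a posterior Hox UMI and 5 had at least 3, and in NTD cluster 5, 8 of 15 cells had one and 5 had at least 3.

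Cell by cell, each cell was thinned to 1500 UMIs so that depth did not differ. 3567 control cells and 0 NTD cells were shallower and were left out. At least 1 posterior Hox UMI was then seen in 3.04% of NTD progenitor-like cells (2.60 to 3.52, 170 of 5599) and in 50.6% of control ones (48.6 to 52.6, 1254 of 2480), a difference of -47.5 percentage points (-49.5 to -45.5, Newcombe interval). Without thinning the shares were 5.39% and 61.2%. In erythroid-like cells the thinned share was 4.40% in NTD and 32.7% in control, so the NTD progenitor-like share was not above background. The median depths were 2105 and 1762 UMIs in NTD and control erythroid-like cells, and 2508 and 2206.5 in cluster 2. At least 2 UMIs were seen in 0.196% of NTD and 28.4% of control progenitor-like cells, and in 0 of 159 NTD (which allows up to 1.89%) and 6.45% of control erythroid-like cells.

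The most caudal group detected in each cell was also recorded, which a single UMI of free RNA can set and which is no measure of axial level in limb cells. In control cluster 2, 14.5% of cells reached group 4 or 5 at most, 22.4% groups 6 to 8, 16.1% group 9 and 10.7% groups 10 to 13. In control cluster 5 the shares were 13.2%, 14.6%, 15.3% and 24.1%, so more cells of the limb-gene mesenchyme had a UMI of groups 10 to 13. In control erythroid-like cells the same shares were 7.83%, 10.1%, 8.76% and 5.99%, in cells that should lack most of these genes. In NTD cluster 2 they were 1.66%, 0.858%, 0.515% and 0.515%.

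**Figure D5:**
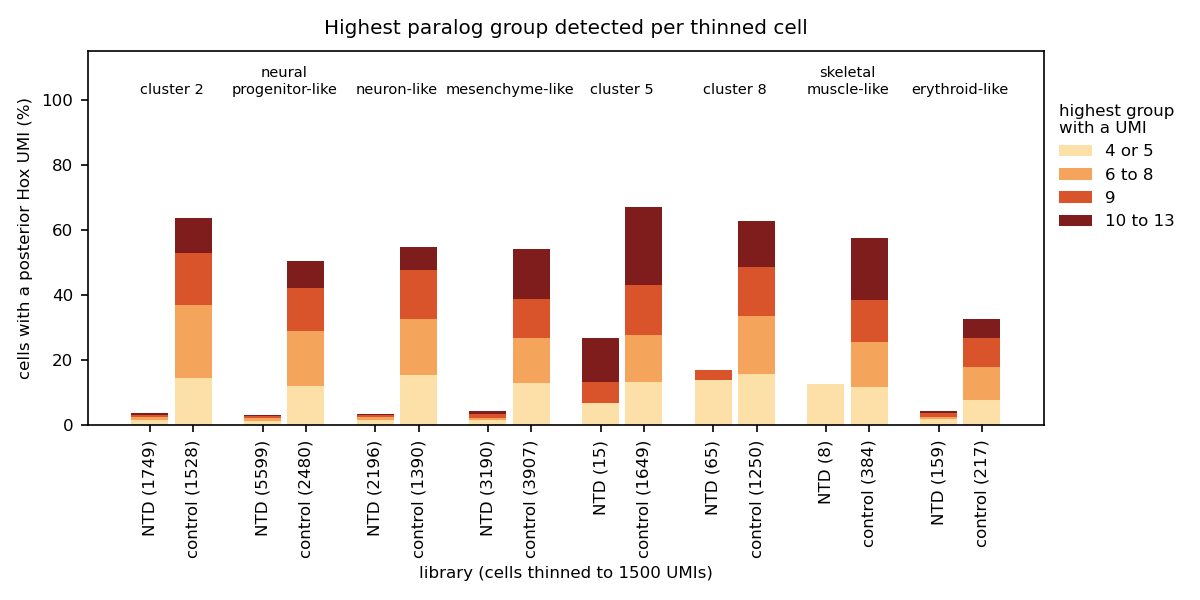
Share of cells (percent, each thinned to 1500 UMIs) with a posterior Hox UMI in 8 cell sets, each with NTD to the left of control, stacked by the highest paralog group detected in the cell and with the number of cells in parentheses. Control bars reach 32.7% in erythroid-like cells and 50.6% to 67.1% in the other sets, and NTD bars stay at or below 4.40% except in clusters 5 and 8 and in the 8 skeletal muscle-like cells.

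In control progenitor-like cells the members went with the group 3 Hox genes, and cells that held them had an Otx2 UMI less often. Of the 704 thinned cells with at least 2 posterior Hox UMIs, 651 were in cluster 2, and 68.3% had an anterior Hox UMI (64.7 to 71.8), against 18.2% (16.1 to 20.5) of the 1226 cells with 0. Of the cells with 0, 554 were in cluster 2, 405 in cluster 3 and 267 in cluster 6. Hoxb3 was seen in 35.1% against 7.91%, and Hoxa3 in 32.1% against 3.59%. Hoxb2 was seen in 4.83% (3.37 to 6.68) against 3.26% (2.34 to 4.42). Otx2, which marks the forebrain and midbrain, was seen in 3.12% against 16.4%. Any of the listed forebrain genes was seen in 44.0% (40.3 to 47.8) against 56.4% (53.5 to 59.2), and Tcf7l2 alone in 35.7% against 36.2%. The part of cluster make-up in the Otx2 difference was not tested. In NTD only 11 progenitor-like cells had at least 2 posterior Hox UMIs, 8 of them in cluster 2, and 3 of the 11 had an anterior Hox UMI (27.3%, 6.02 to 61.0), against 4.57% of the 5429 with 0.

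A small number of NTD cells held several posterior Hox UMIs each. Before thinning, 93.6% of the 16223 NTD cells had 0 posterior Hox UMIs and 886 had 1, whereas 37.1% of the control cells had 0. At least 3 UMIs were held by 70 NTD cells (0.431%) and by 3729 control cells (23.5%). The 70 cells together held 378 UMIs, which is 26.3% of the NTD total. Of them 58 held at least 3 different members, with a median of 4 and up to 11. None of the 70 had a barcode found in the other library.

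Of these 70 cells, 31 were in head-gene mesenchyme cluster 1, and 5 each in clusters 5, 8, 11 and 13. In them group 4 held 33.1% of the posterior Hox UMIs and group 9 held 21.2%, with Hoxc4 (56 UMIs), Hoxa9 (45), Hoxb6 (38), Hoxd4 (34) and Hoxb4 (29) the most counted. Groups 12 and 13 had 0 of 378. The Hoxb complex held 28.0% of the UMIs in these cells (23.6 to 32.9), against 37.4% (34.5 to 40.4) in the other NTD cells. After thinning, an anterior Hox UMI was seen in 33 of the 70 cells (47.1%).

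The 31 such cells of cluster 1 were compared with the 2634 cells of that cluster that had no posterior Hox UMI. Anterior Hox UMIs were seen in 35.5% (19.2 to 54.6) against 2.81%, and noncoding transcripts of the Hox complexes in 45.2% against 2.09%. Any of the head mesenchyme genes was seen in 38.7% (21.85 to 57.8) against 58.6% (56.7 to 60.5). Any of the limb genes was seen in 74.2% (55.4 to 88.1) against 53.6% (51.7 to 55.5), and the limb gene Prrx1 alone in 48.4% against 40.2%. In both lists the intervals overlapped. Of 28 control cells of cluster 1 with at least 3 posterior Hox UMIs, 57.1% had a head mesenchyme gene and 67.9% a limb gene. Tbx5, of the forelimb and heart, was seen in 2 of 31 against 3 of 2634. Their median depths before thinning were 3578 and 2664.5 UMIs. These cells were chosen for their UMIs, and of the 204 NTD cells of cluster 1 with a posterior Hox UMI only 54 had at least 2. Doublets were removed by score only, and their part in these cells was not tested.

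Genes that work with the members were looked at from lists chosen with earlier results of these data known. The anterior Hox genes of groups 1 to 3 had 7 of 8 measured genes at least 2-fold lower in NTD (9.77% of all measured genes were) and 0 higher. Their median log2 ratio was -1.60, and the group 3 genes had the lowest ratios. Hoxa3 was at 3.32 CPM in NTD and 80.2 CPM in control (-4.59, -4.84 to -4.36), Hoxb3 at 8.30 and 106 CPM (-3.67) and Hoxd3 at 6.19 and 64.6 CPM (-3.38). Hoxb2 was at 10.5 CPM in NTD and 23.2 CPM in control (-1.14), and Hoxa2, of the rhombomeres of the hindbrain, at 5.67 and 10.2 CPM (-0.84). The last pair and the other genes of lists named below 20 CPM in both libraries were chosen after their values were seen. Group 3 thus lay within the range of the posterior members, and groups 1 and 2 did not.

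Of the noncoding transcripts of the Hox complexes, 8 of 8 measured were at least 2-fold lower in NTD, with a median of -4.04. Hoxaas3 was at 3.01 CPM in NTD and 67.1 CPM in control (-4.47), Hoxd3os1 at 1.65 and 47.4 CPM (-4.84) and Hoxb5os at 2.79 and 34.3 CPM (-3.62). Antisense transcripts share loci with the members. Of the partners that bind DNA with Hox proteins 1 of 9 was at least 2-fold lower, a share near the 9.77% of all measured genes. It was Meis1, at 197 CPM in NTD and 565 CPM in control (-1.52). Meis2 was at 620 and 1128 CPM (-0.86).

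The Polycomb and trithorax genes, which keep Hox genes silent or active, had 0 of 15 beyond 2-fold either way, with a median of -0.16. Bmi1 was at 34.0 CPM in NTD and 20.04 CPM in control (0.76) and Ezh1 at 15.0 and 26.1 CPM (-0.80). Of the caudal and tail bud genes that act upstream, 3 of 11 measured were lower and 1 higher, against 9.77% and 1.61% of all measured genes. The Cdx genes were too scarce to compare, with 6 UMIs of Cdx1, 12 of Cdx2 and 3 of Cdx4 in NTD and 2, 9 and 2 in control. T, of the tail bud and notochord, had 13 UMIs in NTD and 63 in control (-2.43). Of the retinoic acid genes, 2 of 8 measured were at least 2-fold lower in NTD and 0 higher, with a median log2 ratio of -0.44. The first of these, Aldh1a2, which makes the retinoic acid that induces forward Hox genes, was at 4.44 CPM in NTD and 31.2 CPM in control (-2.81, -3.04 to -2.60). The other, the retinoic acid receptor gene Rarb, itself induced by retinoic acid, was at 64.6 and 156 CPM (-1.28).

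Of the 4 lists that mark mesoderm of the trunk and limbs, 3 were mostly lower in NTD and that of the kidney and intermediate mesoderm was not, with 1 of 7 lower, 1 higher and a median log2 ratio of -0.06. Visceral and body wall mesoderm genes had 7 of 10 lower in NTD (9.77% of all measured genes were) and 0 higher, among them Wt1 at 1.52 CPM in NTD and 24.6 CPM in control (-4.01). Somite genes had 6 of 8 lower and 0 higher, and limb genes 5 of 9 lower and 0 higher. Tbx4, of the hindlimb, was at 0.681 CPM in NTD and 14.5 CPM in control (-4.39), and Tbx5 at 1.47 and 14.8 CPM (-3.32). Forebrain genes had 0 of 14 lower and 10 higher in NTD (1.61% of all measured genes were at least 2-fold higher), with Nkx2-1 at 22.3 CPM in NTD and 5.25 CPM in control (2.08) and Six3 at 28.2 and 7.29 CPM (1.95). Head mesenchyme genes had 0 of 10 lower and 4 higher, with Alx1 at 70.0 and 31.2 CPM (1.17). The part that these differences in tissue played in the Hox ratios was not tested.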

How the data were processed

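Per the labels, cells of embryonic brain were made into Chromium 3′ v3 libraries. The deposited files hold raw UMI counts per gene and barcode; per the file headers the authors' matrices were written by cellranger 7.0.1, and the submitters' processing notes name STAR and the build mm10. Here, a barcode needed 500 genes, 1000 UMIs and a mitochondrial share of no more than 10%, which removed 0. Scanpy 1.11.5 scored doublets with its Scrublet method. The automatic thresholds (0.696 in NTD, 0.623 in control) lay above all scores and called 0, so after seeing this the highest-scoring 15% were removed in each library (2833 and 2724). Cells were clustered with scanpy and leidenalg 0.10.2 (2000 variable genes without the Hox genes, 30 components, 15 neighbours, resolution 1) into 23 clusters. A cluster took the class with the most marker genes, at least 3, each in at least 10% of its cells and at least 1.25-fold higher there, with a lead of 1; cluster 4, cluster 5 and others got no name under the first rule, a lead of 2, which named 14 clusters. The rule was changed after this was seen, naming 19 clusters in 12 classes and leaving 0, 8, 13 and 21 unnamed.

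Raw UMIs were summed per library and class or cluster and given as CPM, the UMIs per 1000000 UMIs of those cells. Log2 ratios are NTD over control with 0.5 counts added to each sum. A gene was measured with at least 20 UMIs over both libraries, and called at 2-fold. A floor of 3 counts was used where a library had 0. Exact intervals (scipy 1.17.1, Python 3.11.15) cover counting error only. TMM factors came from edgeR 4.0.16 in R 4.3.3, and figures from matplotlib 3.10.9. The sums and folds were tested on simulated counts with known changes. Depth was 45532998 NTD and 39776214 control UMIs in kept cells. The 3′ chemistry captures RNA ends, so levels were compared between cells for the same genes and not between genes. Members shown in full had at least 200 control or 20 NTD UMIs; in each list up to 3 genes of at least 20 CPM with the largest ratios were named, and some genes that this rule would name are not reported here. The members and lists were chosen with earlier results of these data known. Bulk RNA-seq of the study was not analysed here.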

Additional observations from a re-analysis of the deposited data

How the results depend on the processing

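Of 88 recomputed values, 61 stayed within 1 counting interval or 1.5 times of the value reported, 27 moved and 0 changed direction. Some of these could not move: no progenitor-like or neuron-like cluster was over 90% from 1 library, so leaving such clusters out changed nothing there. Over all kept cells every measured member was at -2.82 or lower, so the count of members at least 2-fold lower could hardly move. The log2 ratio of all members over all kept cells (-4.51) was -4.40 with doublets kept, -4.26 with TMM scaling, -5.49 with the erythroid-like level subtracted and -4.65 without unnamed clusters. In neural progenitor-like cells (-5.23) it was -4.86 with doublets kept and -5.04 with TMM scaling, and in neuron-like cells (-5.24) -4.82 with doublets kept. Subtraction gave no value in these 2 classes, since the NTD level was under the NTD erythroid-like level. The mesenchyme-like ratio (-4.02) depended most on the clusters taken. It was -2.42 in cluster 1 alone and under the naming rule tried first, which are the same cells counted as separate alternatives. It was -2.76 at resolution 0.5, -3.71 without clusters over 90% from 1 library, -3.86 with TMM scaling, -4.19 after thinning, -4.23 with Hox genes used for clustering, -4.25 with doublets kept and -4.26 after subtraction. The difference in the share of progenitor-like cells with a posterior Hox UMI (-47.5 percentage points) was -50.1 at resolution 2, -51.0 under the first naming rule, -55.8 without thinning and -60.2 in cluster 2 alone. The mesenchyme-like share of control posterior Hox UMIs (29.0%) was 27.8% with doublets kept, 36.3% with the stricter cell filter, 31.6% with Hox genes used for clustering, 2.56% at resolution 0.5, 31.1% at resolution 2, 19.4% without clusters over 90% from 1 library and 1.64% under the first naming rule. The count of members at least 2-fold lower ran from 30 to 31 over all kept cells and from 21 to 31 in progenitor-like cells, and the share of groups 4 and 5 in NTD from 41.1% to 42.8%. Apart from the construction of each alternative, the cause of these shifts was not tested. No paired analysis was possible because each group has 1 library, and for the same reason no replicate could be left out. In NTD most values rest on few UMIs: the erythroid-like gauge on 8, cluster 5 on 21 and cluster 8 on 62.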

Other observations

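Spinal neuron genes that are read out from Hox codes had 6 of 13 at least 2-fold lower in NTD and 0 higher, over all kept cells. Of all measured genes 9.77% were lower and 1.61% higher. Chat, which makes the motor neuron transmitter acetylcholine, had 10 UMIs in NTD and 189 in control (0.220 and 4.75 CPM, a log2 ratio of -4.37), and the motor neuron factor Mnx1 had 7 and 76 (-3.55). Foxp1, the Hox cofactor of limb motor columns, was at 412 CPM in NTD and 652 CPM in control (-0.66). Mecom was at 394 and 639 CPM (-0.70) and Etv4 at 12.96 and 24.4 CPM (-0.91). Chat and Mnx1 were chosen after their values were seen. Among hindbrain genes other than Hox genes, 2 of 7 measured were lower (9.77% of all measured genes were), 0 were higher and the median was -0.34. Lmx1b was at 19.0 CPM in NTD and 39.2 CPM in control (-1.04).

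The remaining noncoding transcripts of the Hox complexes ranged widely. Hoxb3os was at 13.8 CPM in NTD and 36.1 CPM in control (-1.39), Hotairm1 at 4.41 and 18.5 CPM (-2.06) and Hoxaas2 at 4.39 and 17.5 CPM (-1.99). Hoxa11os was at 0.395 and 15.2 CPM (-5.23). Hotair, of the Hoxc complex between Hoxc11 and Hoxc12, had 0 UMIs in NTD and 28 in control, and Hottip, at the Hoxa13 end, 0 and 13. Hotairm1, Hoxaas2, Hoxa11os, Hotair and Hottip were chosen after their values were seen.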
